A study of Mus musculus with 9 samples.

Results

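Cadherins and protocadherins are the calcium-dependent adhesion molecules through which neighbouring cells hold on to and recognise each other. The set described here holds every gene whose symbol is Cdh or Pcdh followed by a number, together with the clustered protocadherins named Pcdha, Pcdhb and Pcdhg. The rule used symbols and no measured value, and it found 93 of the 52083 genes with a symbol. It took in 5 classical type I cadherins, 13 type II cadherins, 5 other cadherins, 4 delta-1 and 5 delta-2 protocadherins, 3 further nonclustered protocadherins, and 14 alpha, 22 beta and 22 gamma clustered protocadherins. RNA-Seq of 9 libraries measured these genes in cultured mouse AdvSca1-SM cells, the Sca1+ adventitial progenitors that descend from vascular smooth muscle. They had been sorted from the pooled aortae and carotid arteries of 8-week-old SM22α-Cre-YFP mice, in which Cre driven by a smooth muscle promoter marks the lineage with YFP, and then subcultured. All 3 groups of 3 libraries were cultured for 72 hours with 0.1% DMSO. The Stem group was kept in stem cell medium with serum, FGF and EGF. The TGF-β group was in low-serum medium with 5 ng/mL TGF-β, and the Both group received the same with 50 μM PFI-3, a compound directed at the bromodomain of the chromatin remodeler Brg1. Medium and TGF-β changed together between Stem and TGF-β and cannot be told apart, and no library had PFI-3 without TGF-β.

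A classical cadherin binds the same or a similar cadherin on the facing cell through its outer domains. Its inner tail takes hold of β-catenin and p120-catenin, and the link to actin runs through β-catenin. Fibroblasts and smooth muscle cells are known for N-cadherin (*Cdh2*) and, when they become myofibroblasts, for cadherin-11 (*Cdh11*), whereas epithelia use E-cadherin (*Cdh1*) and endothelium uses VE-cadherin (*Cdh5*). Protocadherins have other tails and adhere more weakly. Nonclustered delta protocadherins are each made from their own gene, while the alpha, beta and gamma genes stand in tandem arrays, where each alpha or gamma transcript joins its own variable first exon to constant exons that it shares with the other genes of its cluster.

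The 9 libraries held 35686291 to 47741128 counts, and members took between 0.21% and 0.287% of them. Stem replicate 2 stood apart from the other Stem libraries in that 1 gene without a symbol (ENSMUSG00000119584) took 4.7% of its counts against 0.364% and 0.477%. Without that library 27, 1 and 22 members passed the threshold used below in the 3 comparisons, against 26, 1 and 22 with it. Markers of the progenitor state (*Ly6a*, *Cd34*, *Scara5* and *Pdgfra*) had summed levels of 50500 to 58800 normalized counts in the Stem libraries and of 6360 to 6640 under TGF-β, and all 6 hepatocyte markers stayed at 3 counts or below in every library although the extraction text names hepatic tissue. Of 7 endothelial markers, *Erg* and *Kdr* rose and *Tek* and *Emcn* fell between Stem and TGF-β, *Cldn5* was at 0 throughout, and the summed level went from 163 to 386 in Stem to 1330 to 1470 in TGF-β and 1030 to 1200 in Both, nearly all of it *Erg* in the latter groups. The 5 glial markers had summed levels of 42.9 to 51.1 in Stem, 377 to 438 in TGF-β and 241 to 254 in Both, in the latter groups nearly all *S100b*, with *Sox10* and *Foxd3* at 0. The 4 leukocyte markers had summed levels of 19.6 to 41.9, 71 to 103 and 152 to 156, through *Csf1r* and *Cd68*, with *Adgre1* at 0, and of the 7 epithelial markers *Krt19* alone had enough reads to be tested, and rose (summed levels of 3.14 to 13, 26.4 to 36.1 and 16.7 to 29.7). Of 6 smooth muscle markers *Acta2* (2.32-fold) and *Tagln* (2.67-fold) rose from Stem to TGF-β past the threshold used below and *Myh11* fell (2.99-fold). *Cnn1*, *Smtn* and *Des* did not pass that threshold. Of 5 neuronal markers 4 stayed at 3 counts or below in every library, and *Tubb3* did not pass the threshold. The part of other cell types in the results was not tested. In bulk RNA, fewer cells of a type and less RNA per cell cannot be told apart.

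Of the 93 members, 65 had enough reads to be among the 14879 genes tested, and the other 28 had at most 15 counts in any library. Among the untested members were the lineage cadherins of epithelium (*Cdh1*, at most 3 counts), endothelium (*Cdh5*, at most 9), skeletal muscle (*Cdh15*, at most 4) and kidney tubule (*Cdh16*, 0 in every library, which allows up to 3.26 normalized counts). *Cdh17*, the cadherin of intestinal epithelium, just passed the filter with group means of 8.22 (Stem), 14.1 (TGF-β) and 12.6 (Both), and it did not differ at the threshold (edgeR quasi-likelihood test, Benjamini-Hochberg adjusted p = 0.0811 between Stem and TGF-β). *Cdh7* and *Pcdhb1* were also at 0 throughout. *Cdh12* held 9, 10 and 7 counts in Stem and 0 or 1 in each of the other 6 libraries, and *Cdh8* held 6, 6 and 4 against 0 or 1, too few for a test. A further limit is that 9 tested members reached the filter's minimum in every library of only some groups, so they could enter the test through the group where they were high. They were *Cdh6*, *Cdh10*, *Cdh17*, *Cdh26*, *Pcdh8*, *Pcdha12*, *Pcdhb8*, *Pcdhb11* and *Pcdhb12*.

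Per kilobase of exon, 5 members stood above the rest in every group. In Stem the gamma protocadherin *Pcdhgc3* led at 5360 to 5890 normalized counts per kilobase over the 3 libraries, followed by *Cdh11* at 2310 to 2510, the delta-1 protocadherin *Pcdh7* at 1580 to 1680, *Cdh2* at 897 to 926 and the delta-2 protocadherin *Pcdh19* at 528 to 599. No neighbours in that order overlapped. In TGF-β the order of the first pair was turned, with *Cdh11* at 3670 to 3910 and *Pcdhgc3* at 2720 to 2860 normalized counts per kilobase. That turn depends on the length used, since *Pcdhgc3* shares 38.5% of its exon bases with other gamma genes and reached 4515 in TGF-β per kilobase of its unshared exon, against 3799 for *Cdh11*. In Both the order was again *Pcdhgc3* (2760 to 2870), *Cdh11* (2350 to 2700), *Pcdh7*, *Cdh2* and *Pcdh19*. These 5 genes took 74.3% to 81.3% of all member counts in each library.

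**Figure D1:**
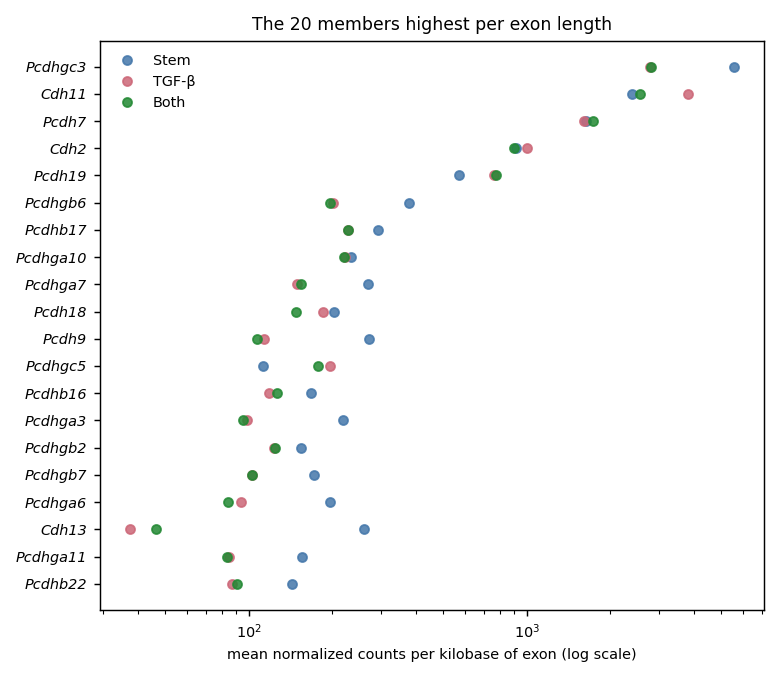
Mean normalized counts per kilobase of exon (log scale) of the 20 members with the highest level over all 9 libraries, with 1 point for each group. *Pcdhgc3* and *Cdh11* lead in each group, *Cdh11* being the higher in TGF-β, and *Cdh13* shows the widest gap between Stem and the other groups.

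The first comparison, Stem against TGF-β, asks which adhesion genes differ between stem cell medium and TGF-β in low-serum medium. The study used the latter to drive the progenitors towards myofibroblasts. Genes were called where the adjusted p of edgeR's quasi-likelihood test was under 0.05 and the change was at least 2-fold. Of the 65 tested members 8 rose and 18 fell in TGF-β. Over all 14879 tested genes 10.6% were called higher and 14.5% lower, so the members called higher (12.3%) were near that share and those called lower (27.7%) lay above it. At the adjusted p alone 15 members were higher and 40 lower, where 37.3% and 37.7% of all tested genes were. The median log2 fold change was -0.54 over the tested members and 0.00 over all tested genes. These figures pool unlike classes. Of the 18 members that fell 6 were beta and 7 gamma protocadherins, while of the 8 that rose 0 were beta or gamma and 4 were type II cadherins. The class medians were -0.58 (beta), -0.9 (gamma) and 1.56 (type II). When libraries were scaled by their total counts, 6 members were called higher and 25 lower, and the median of all tested genes was then -0.12. Tested by edgeR's TREAT against a change of 2-fold, which asks that the change itself exceeds that size, 4 were called higher and 10 lower. Of the 14879 tested genes TREAT called 2479 in either direction, and total-count scaling 3802.

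The type II cadherins carried the largest increases among tested members. Of the 13 in the set 5 were tested, and 4 of these rose past the threshold, as did 10.6% of all tested genes. The fifth, *Cdh11*, was higher at the adjusted p alone. *Cdh10* and *Cdh6* reached the filter's minimum in every library of TGF-β and Both but not of Stem. *Cdh12* and *Cdh8*, also type II, had their few reads mostly in Stem and were untested, so the tested genes do not stand for the class. *Cdh10* and *Cdh6*, both best known from the developing nervous system and *Cdh6* also from kidney, went from under 10 normalized counts to more than 200, while *Cdh26* and *Pcdh8* had the largest decreases among the tested members. The RefSeq promoter windows of these 4 genes are shown because they mark the ends of the range over tested members, from 250 bases before to 50 after the annotated start (GRCm38.p6). *Cdh10* lies at chr15:18820079-18820378 on the plus strand, *Cdh6* at chr15:13173626-13173925 on the minus strand, *Cdh26* at chr2:178430265-178430564 on the plus strand and *Pcdh8* at chr14:79771263-79771562 on the minus strand. Capitals mark CAGAC, the short box that Smad proteins bind, or its reverse complement GTCTG.
Cdh10: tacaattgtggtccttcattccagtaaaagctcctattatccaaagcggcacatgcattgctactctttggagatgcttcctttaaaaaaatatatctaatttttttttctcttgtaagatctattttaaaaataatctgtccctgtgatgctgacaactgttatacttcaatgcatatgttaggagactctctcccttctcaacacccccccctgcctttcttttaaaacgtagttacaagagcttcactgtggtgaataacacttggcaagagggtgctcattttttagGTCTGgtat
Cdh6: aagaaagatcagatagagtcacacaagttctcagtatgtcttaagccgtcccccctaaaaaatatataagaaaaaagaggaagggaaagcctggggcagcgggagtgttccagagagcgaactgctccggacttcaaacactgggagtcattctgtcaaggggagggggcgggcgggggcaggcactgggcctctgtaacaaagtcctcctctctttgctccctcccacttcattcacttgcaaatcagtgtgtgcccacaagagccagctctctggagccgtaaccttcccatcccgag
Cdh26: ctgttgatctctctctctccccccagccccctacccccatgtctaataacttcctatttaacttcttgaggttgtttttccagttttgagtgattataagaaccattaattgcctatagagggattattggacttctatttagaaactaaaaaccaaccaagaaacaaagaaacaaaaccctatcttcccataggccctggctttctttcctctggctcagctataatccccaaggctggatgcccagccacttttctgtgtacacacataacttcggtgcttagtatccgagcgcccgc
Pcdh8: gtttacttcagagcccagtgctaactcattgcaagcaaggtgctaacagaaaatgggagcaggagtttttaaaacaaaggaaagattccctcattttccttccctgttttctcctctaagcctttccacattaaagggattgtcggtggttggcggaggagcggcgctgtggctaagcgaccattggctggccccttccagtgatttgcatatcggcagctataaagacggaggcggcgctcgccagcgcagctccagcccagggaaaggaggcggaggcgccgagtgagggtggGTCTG
The *Cdh10* and *Pcdh8* windows held 1 such box each and those of *Cdh6* and *Cdh26* none, while 49.6% of 32851 promoter windows of the same length held at least 1 on either strand. CAGGTG, the box bound by Snail and Zeb factors, was in none of the 4 and in 20.2% of all windows. The *Cdh10* window was poor in G and C (37.7%), as was that of *Cdh26* (44.0%), against a median of 52.7% over all windows. A match in these letters is a description and no measured binding, and the start used by these cells was not measured.

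*Cdh10* (ENSMUSG00000022321) was measured at 3.14, 4.35 and 6.49 normalized counts (Stem), 313, 251 and 324 (TGF-β), and 308, 256 and 281 (Both). The lowest TGF-β library was thus far above the highest Stem library, and the log2 fold change of 5.96 ± 0.23 (SE) corresponded to 62.1-fold (adjusted p = 2.15e-10, edgeR quasi-likelihood test). *Cdh6* (ENSMUSG00000039385) was measured at 8.38, 8.69 and 6.49 normalized counts (Stem), 417, 404 and 447 (TGF-β), and 248, 249.7 and 284 (Both), with no overlap between any of the 3 groups. It rose by 5.73 ± 0.15 on the log2 scale, or 53-fold (edgeR adjusted p = 8.45e-12). *Cdh18* (ENSMUSG00000040420), another cadherin of the brain, started from a measurable level. The libraries held 114, 109 and 122 normalized counts (Stem), 305, 356 and 358 (TGF-β), and 332, 385 and 341 (Both), a log2 increase of 1.56 ± 0.10 (edgeR adjusted p = 3.64e-08) in which TGF-β and Both lay together above Stem. *Cdh24* (ENSMUSG00000059674) had the fewest counts of the 4, at 42.9, 31.5 and 24.9 normalized counts (Stem), 74.5, 78.1 and 55.6 (TGF-β), and 54.9, 101 and 71.1 (Both). It rose by 1.06 ± 0.27 (edgeR adjusted p = 0.00361), close to the 2-fold line, and fell short of that line without Stem replicate 3 (0.89), without TGF-β replicate 2 (0.97) or with scaling by total counts (0.94).

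*Cdh11* (ENSMUSG00000031673), the myofibroblast cadherin, held the most counts of the *Cdh* genes in every group. Its libraries held 20530, 21190 and 22330 normalized counts (Stem), 34800, 32700 and 34000 (TGF-β), and 24020, 23170 and 20960 (Both). TGF-β lay above Stem in all 3 libraries with a log2 difference of 0.66 ± 0.05, which is 1.58-fold and under the 2-fold minimum (edgeR adjusted p = 2.41e-07). The 2 tested type I cadherins were higher at the adjusted p alone. Of all tested genes 37.3% were higher at the adjusted p whatever the fold. *Cdh2* (ENSMUSG00000024304), N-cadherin, held 7234, 7413 and 7471 normalized counts (Stem), 8036, 8297 and 7836 (TGF-β), and 7133, 7621 and 6983 (Both), and its difference of 0.13 ± 0.04 (edgeR adjusted p = 0.0146) was 0.01 when libraries were scaled by total counts (edgeR adjusted p = 0.867). *Cdh3* (ENSMUSG00000061048), P-cadherin of basal epithelium, was measured at 70.1, 72.8 and 59.5 normalized counts (Stem), 140.3, 129.8 and 95.7 (TGF-β), and 36.0, 50.3 and 31.6 (Both). The 3 groups did not overlap, and the log2 difference between Stem and TGF-β was 0.85 ± 0.19 (edgeR adjusted p = 0.00131). *Cdh1* and *Cdh4*, the other common type I cadherins, were among the untested members.

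Of the other cadherins outside types I and II, 2 of the 4 tested fell past the threshold, where 14.5% of all tested genes did. *Cdh13* (ENSMUSG00000031841), T-cadherin, is held in the membrane by a lipid anchor and serves as a receptor for adiponectin. It was measured at 3148, 2724 and 2859 normalized counts (Stem), 488, 363 and 409 (TGF-β), and 556, 432 and 580.2 (Both), with every Stem library several times above every other library. The log2 fold change was -2.79 ± 0.12, 6.94-fold lower in TGF-β (edgeR adjusted p = 4.42e-10). *Cdh26* (ENSMUSG00000039155) held 116, 153 and 127 normalized counts (Stem), 14.0, 14.2 and 14.6 (TGF-β), and 4.50, 13.8 and 9.65 (Both), and fell by 9.15-fold (log2 -3.19 ± 0.23, edgeR adjusted p = 1.01e-07). *Cdh23*, which forms the tip links of hair cells, held between 13.0 and 30.4 normalized counts over all libraries with overlapping groups, and its partner there, *Pcdh15*, was untested with at most 1 count.

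**Figure D2:**
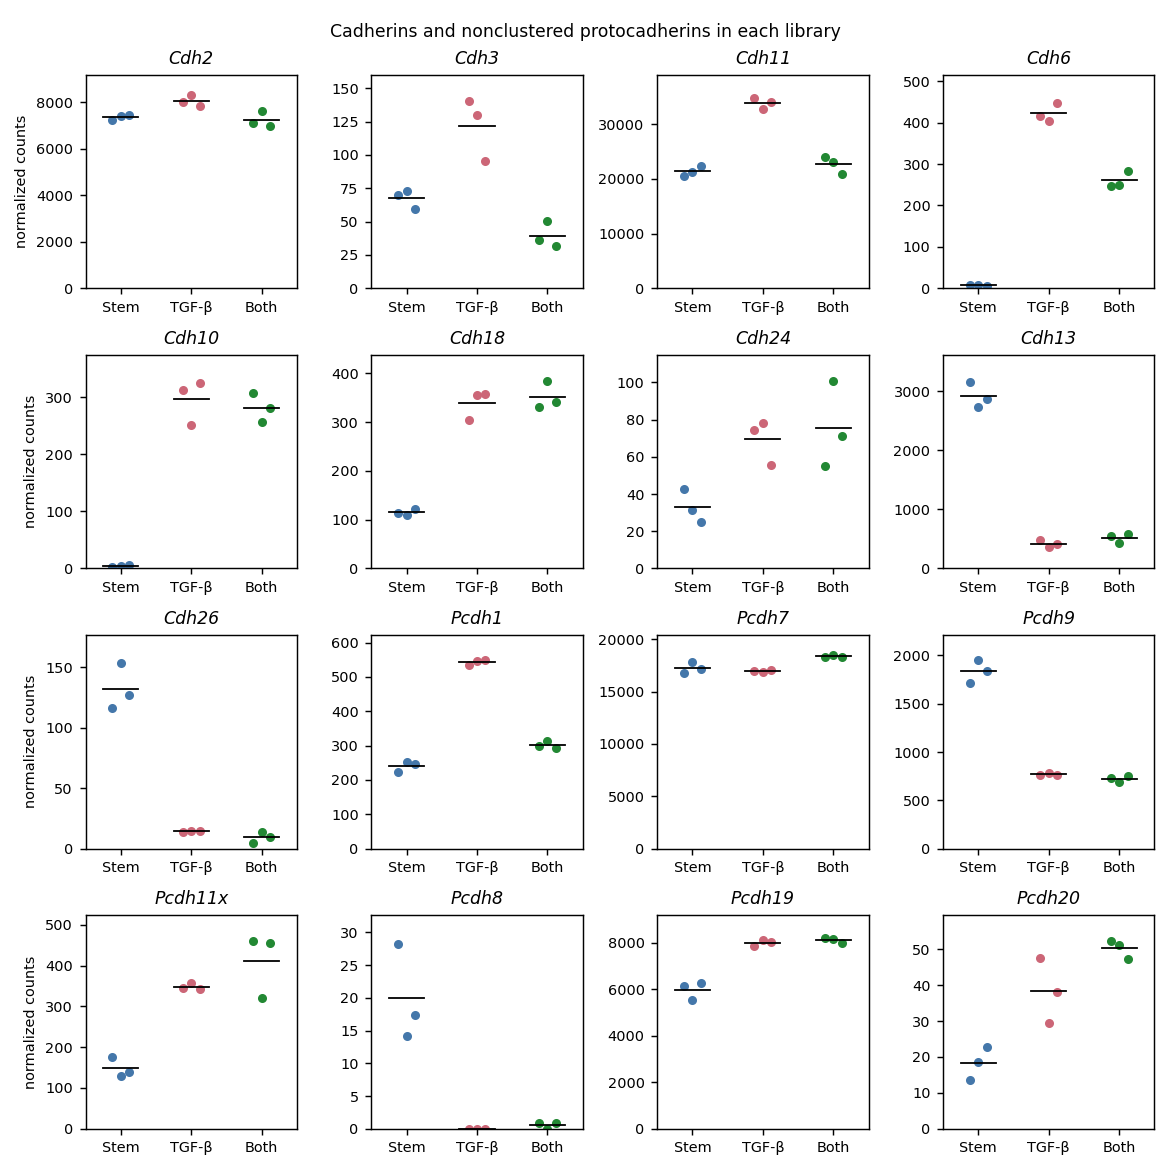
Normalized counts of 16 cadherins and nonclustered protocadherins in each library (points, 3 for each group) with the group mean (line), each panel starting at 0. *Cdh6*, *Cdh10*, *Cdh18* and *Pcdh11x* are higher in TGF-β and Both than in Stem without overlap, *Cdh13*, *Cdh26*, *Pcdh8* and *Pcdh9* lower, and *Cdh3*, *Cdh11*, *Cdh6* and *Pcdh1* are lower in Both than in TGF-β without overlap.

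Nonclustered protocadherins moved in both directions. Of 4 delta-1 members, whose tails bind protein phosphatase 1, *Pcdh1* and *Pcdh11x* rose, *Pcdh9* fell and *Pcdh7* did not pass the test. Past the threshold 10.6% of all tested genes rose and 14.5% fell. *Pcdh1* (ENSMUSG00000051375), known from airway epithelium, held 222, 252 and 246 normalized counts (Stem), 534, 548 and 549.7 (TGF-β), and 298, 315 and 294 (Both), and its log2 increase was 1.18 ± 0.07 (edgeR adjusted p = 1.54e-08). *Pcdh11x* (ENSMUSG00000034755) held 175, 130.4 and 139 normalized counts (Stem), 344, 358 and 343 (TGF-β), and 460.1, 321 and 456 (Both), an increase of 1.23 ± 0.15 (edgeR adjusted p = 1.00e-05), and for both genes every TGF-β library was above every Stem library. *Pcdh9* (ENSMUSG00000055421) held 1715, 1949 and 1839 normalized counts (Stem), 765, 781 and 759 (TGF-β), and 735, 687 and 755 (Both). It fell 2.39-fold in TGF-β (log2 -1.26 ± 0.06, edgeR adjusted p = 1.12e-09). *Pcdh7* (ENSMUSG00000029108), the most abundant nonclustered protocadherin, held 16800, 17860 and 17180 normalized counts (Stem), 17010, 16860 and 17080 (TGF-β), and 18350, 18480 and 18260 (Both). Its Stem and TGF-β libraries overlapped and its log2 difference was -0.03 ± 0.04 (edgeR adjusted p = 0.534).

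The 5 delta-2 protocadherins share a tail motif that binds the WAVE actin regulators. *Pcdh19* (ENSMUSG00000051323), the gene of an X-linked epilepsy, held 6138, 5529 and 6267 normalized counts (Stem), 7852, 8091 and 8044 (TGF-β), and 8216, 8172 and 7991 (Both), and its difference of 0.42 ± 0.05 passed the adjusted p but not the 2-fold minimum (edgeR adjusted p = 4.42e-06). *Pcdh8* (ENSMUSG00000036422), which is removed from synapses with N-cadherin, held 28.3, 14.1 and 17.3 normalized counts in Stem. It had no count in any TGF-β library and 0.900, 0 and 0.878 in Both. Set against the level of 3 counts per library, its level under TGF-β was at least 6.48-fold lower (edgeR adjusted p = 3.55e-05). *Pcdh18* (ENSMUSG00000037892) held 870, 1273 and 1127 normalized counts (Stem), 1005, 1032 and 936 (TGF-β), and 775, 884 and 724 (Both), and Stem and TGF-β overlapped (log2 -0.14 ± 0.12, edgeR adjusted p = 0.298). *Pcdh17* was lower in TGF-β at the adjusted p alone (log2 -0.83 ± 0.16, edgeR adjusted p = 4.52e-04) and *Pcdh10* did not pass (log2 0.30 ± 0.32). Outside both groups, *Pcdh20* (ENSMUSG00000050505) held 13.6, 18.5 and 22.7 normalized counts (Stem), 47.5, 29.4 and 38.1 (TGF-β), and 52.2, 51.3 and 47.4 (Both). It rose by 1.06 ± 0.25 (edgeR adjusted p = 0.00199), without overlap, but ended under the 2-fold line without Stem replicate 1 (0.89), without TGF-β replicate 1 (0.90), with scaling by total counts (0.94) and with a prior count of 2 (0.99).

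The clustered protocadherins were lower in TGF-β nearly throughout the beta and gamma arrays. Summed over the 22 genes of each cluster, gamma went from 45630 ± 1573 normalized counts in Stem to 25560 ± 643 in TGF-β and 25540 ± 244.7 in Both (mean ± SD, n = 3), and beta from 6225 ± 252.9 to 3968 ± 91.9 and 4038 ± 81.5. In each Stem library both sums were above those of all other libraries. The 14 alpha genes were low in sum, at 96.3 ± 21.2, 87.2 ± 7.01 and 93.0 ± 8.09, with overlapping groups. The constant exons shared between members make 2116 bases or more of each gamma gene and 2860 or more of each alpha gene in the annotation (GENCODE M21, GRCm38), whereas beta genes share none except 455 bases between *Pcdhb21* and *Pcdhb22*. Reads inside a shared exon cannot be told apart between the genes of a cluster, and how the counting treated them is not given in the sources used here. *Pcdhgb8* had 45 to 130 counts beside gamma sums of at least 25130 normalized counts, so reads of the shared exons had not been added in full to every gamma gene. Levels of alpha and gamma members are therefore uncertain in size. Genes are also annotated on the opposite strand across exons of *Pcdhgc3*, *Pcdhga7*, *Pcdhga8*, *Pcdhga10*, *Pcdha12*, *Pcdhb12*, *Pcdh7*, *Pcdh8*, *Pcdh19* and others. For *Pcdha11* this holds only for ENSMUSG00000102206, an untested identifier of that symbol. Since the strand setting of the counting is not given, reads of either strand in such exons cannot be told apart.

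**Figure D3:**
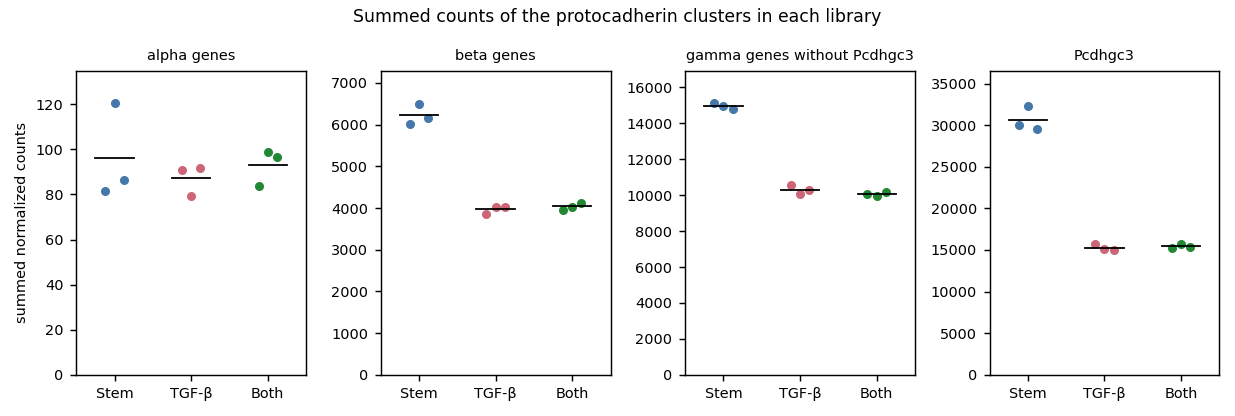
Summed normalized counts of the alpha, beta and gamma protocadherin genes in each library (points) with the group mean (line), with *Pcdhgc3* shown apart from the other gamma genes and each axis starting at 0. The beta sum, the gamma sum without *Pcdhgc3* and *Pcdhgc3* itself are lower in TGF-β and Both than in Stem without overlap, and the alpha sums overlap.

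*Pcdhgc3* (ENSMUSG00000102918), one of the C-type genes at the end of the gamma array, held most of the gamma counts. Its libraries held 30060, 32370 and 29490 normalized counts (Stem), 15750, 15060 and 14970 (TGF-β), and 15190, 15780 and 15380 (Both). The log2 fold change of -1.01 ± 0.04 (edgeR adjusted p = 7.13e-10) sat on the 2-fold line, and 6 of the 9 fits that left out 1 library, DESeq2 and the fit without a filter put it just under that line, the smallest change being -0.96 without Stem replicate 2. *Pcdhgc3* made 66.5% to 68.3% of gamma counts in the Stem libraries, 59.3% to 59.9% in TGF-β and 60.1% to 61.3% in Both, so Stem lay apart from both other groups. Without it, the gamma sum went from 14980 ± 163.5 to 10300 ± 238.1 and 10090 ± 110.4.

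The other 2 C-type gamma genes differed in direction. *Pcdhgc4* (ENSMUSG00000023036) held 407, 443 and 401 normalized counts (Stem), 171, 192 and 185 (TGF-β), and 145, 159 and 167 (Both) and fell without overlap (log2 -1.19 ± 0.09, edgeR adjusted p = 8.51e-08). *Pcdhgc5* (ENSMUSG00000102543) held 798, 986 and 795 normalized counts (Stem), 1476, 1477 and 1532 (TGF-β), and 1332, 1395 and 1328 (Both). It was 1.74-fold higher in TGF-β without overlap (log2 0.80 ± 0.07, edgeR adjusted p = 7.50e-07), under the 2-fold minimum. The 1 other gamma gene that was higher at the adjusted p was *Pcdhga8*, at 288 ± 8.05 (Stem), 485 ± 25.1 (TGF-β) and 457 ± 14.4 (Both, mean ± SD, n = 3, log2 0.75 ± 0.07).

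Of the 12 A-type gamma genes, 4 fell past the threshold, where 14.5% of all tested genes did. *Pcdhga2* (ENSMUSG00000103332) held 632, 588 and 563 normalized counts (Stem), 297, 269.8 and 289 (TGF-β), and 298, 295 and 298 (Both), with TGF-β and Both overlapping each other far below Stem. *Pcdhga3* (ENSMUSG00000104346) held 1002, 1020 and 1079 normalized counts (Stem), 442, 491 and 463 (TGF-β), and 445, 477 and 435 (Both). *Pcdhga4* (ENSMUSG00000103677) held 423, 441 and 459.8 normalized counts (Stem), 205, 199 and 209.9 (TGF-β), and 197, 203 and 206 (Both). In all of these the Stem libraries stood apart, and the log2 fold changes were -1.06 ± 0.07, -1.15 ± 0.06 and -1.11 ± 0.07 (edgeR adjusted p = 3.64e-08, 4.71e-09 and 3.32e-08). *Pcdhga6* (ENSMUSG00000103793) held 861, 1034 and 884 normalized counts (Stem), 444, 434 and 456 (TGF-β), and 417, 397 and 384 (Both), a log2 fold change of -1.06 ± 0.07 (edgeR adjusted p = 6.62e-08) that became -0.97 without Stem replicate 2. *Pcdhga7* (ENSMUSG00000103472) held 1456, 1364 and 1380 normalized counts (Stem), 856, 718 and 759.6 (TGF-β), and 812, 803 and 808 (Both), lower in TGF-β at the adjusted p alone (log2 -0.85 ± 0.06). *Pcdhga10* (ENSMUSG00000102222) held 1160, 1054 and 1107 normalized counts (Stem), 1091, 984 and 1078 (TGF-β), and 1120, 1024 and 997 (Both). It and *Pcdhga1* were the gamma genes that did not pass the adjusted p, at log2 differences of -0.07 ± 0.06 and -0.06 ± 0.08.

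Among the B-type gamma genes 1 fell past the threshold. *Pcdhgb8* (ENSMUSG00000103081) held 136, 111 and 126 normalized counts (Stem), 49.6, 50.7 and 43.9 (TGF-β), and 62.1, 57.2 and 70.2 (Both), with Both between the other groups, and the log2 fold change from Stem to TGF-β was -1.37 ± 0.14 (edgeR adjusted p = 2.55e-06). *Pcdhgb6* (ENSMUSG00000103088), the most abundant of them, held 1813, 1792 and 1694 normalized counts (Stem), 979, 937 and 918 (TGF-β), and 898, 932 and 933 (Both), lower at the adjusted p alone (log2 -0.90 ± 0.05). In all, 7 of the 22 gamma genes fell past the threshold, 11 were lower at the adjusted p alone, with log2 differences from -0.95 (*Pcdhga5*) to -0.32 (*Pcdhgb2*), 2 were higher at the adjusted p alone and 2 did not pass, beside the same 14.5% of all tested genes past the threshold and 37.7% lower at the adjusted p. Between these ends lay *Pcdhga7*, *Pcdhga9* (-0.90), *Pcdhga11* (-0.87), *Pcdhga12* (-0.58), *Pcdhgb1* (-0.92), *Pcdhgb4* (-0.36), *Pcdhgb5* (-0.91), *Pcdhgb6* and *Pcdhgb7* (-0.74). The median log2 fold change over the 22 gamma genes was -0.90.

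Beta protocadherins, each encoded by a single exon, were measured without the shared exons of the other clusters. Of the 19 tested, 6 fell past the threshold, 10 were lower at the adjusted p alone, 3 did not pass and none was higher, with a median log2 fold change of -0.58. Of all tested genes 14.5% fell past the threshold, and 37.7% were lower at the adjusted p whatever the fold. *Pcdhb19* (ENSMUSG00000043313) and *Pcdhb5* (ENSMUSG00000063687) held the most counts of those that fell. *Pcdhb19* held 663, 689 and 699 normalized counts (Stem), 328, 298 and 287 (TGF-β), and 298, 279 and 324 (Both), and *Pcdhb5* held 363, 368 and 352 normalized counts (Stem), 180.2, 167 and 179 (TGF-β), and 193, 179.6 and 163 (Both), each with the Stem libraries tight and apart (log2 -1.17 ± 0.07 and -1.04 ± 0.08, edgeR adjusted p = 2.75e-08 and 2.61e-07). *Pcdhb21* (ENSMUSG00000044022) held 303, 335 and 313 normalized counts (Stem), 117, 134 and 134 (TGF-β), and 169, 122 and 179 (Both) (log2 -1.30 ± 0.13, edgeR adjusted p = 1.75e-06). *Pcdhb9* (ENSMUSG00000051242) showed the steepest fall among the tested beta genes, at 92.1, 64.1 and 72.5 normalized counts (Stem), 22.7, 28.4 and 29.3 (TGF-β), and 26.1, 21.7 and 20.2 (Both) (log2 -1.50 ± 0.20, edgeR adjusted p = 2.10e-05). The other members that fell were low. *Pcdhb12* (ENSMUSG00000043458) held 27.2, 28.2 and 23.8 normalized counts (Stem), 7.55, 12.2 and 9.76 (TGF-β), and 14.4, 15.8 and 14.0 (Both), and *Pcdhb11* (ENSMUSG00000051486) held 15.7, 21.7 and 21.6 normalized counts (Stem), 4.32, 13.2 and 5.86 (TGF-β), and 13.5, 12.8 and 11.4 (Both) (log2 -1.41 ± 0.25 and -1.31 ± 0.36, edgeR adjusted p = 2.74e-04 and 0.00585).

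*Pcdhb17* (ENSMUSG00000046387) was the most abundant beta gene and differed least among those that passed the adjusted p. It held 1277, 1423 and 1376 normalized counts (Stem), 1051, 1041 and 1094 (TGF-β), and 1039, 1086 and 1060 (Both), lower in every TGF-β library (log2 -0.35 ± 0.05, edgeR adjusted p = 4.21e-05). The other beta genes that were lower at the adjusted p alone were *Pcdhb3* (log2 -0.54), *Pcdhb7* (-0.39), *Pcdhb8* (-0.93), *Pcdhb14* (-0.58), *Pcdhb15* (-0.43), *Pcdhb16* (-0.50), *Pcdhb18* (-0.41), *Pcdhb20* (-0.92) and *Pcdhb22* (-0.71). In other settings by edgeR or DESeq2 the adjusted p rose to 0.162 for *Pcdhb7* and to 0.0904 for *Pcdhb8*. *Pcdhb8* reached the filter's minimum in every library of Stem only. *Pcdhb2*, *Pcdhb4* and *Pcdhb13* did not pass, at -0.19 ± 0.14, -0.35 ± 0.21 and -0.40 ± 0.25.

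Only 3 of the 14 alpha genes were tested, and they did not move together. *Pcdha12* (ENSMUSG00000103310) rose from a few counts, at 5.23, 5.43 and 3.25 normalized counts (Stem), 15.1, 10.1 and 22.5 (TGF-β), and 16.2, 30.6 and 22.8 (Both) (log2 1.76 ± 0.46, edgeR adjusted p = 0.00416). *Pcdhac2* (ENSMUSG00000102697), a C-type gene, held 38.7, 73.9 and 48.7 normalized counts (Stem), 17.3, 22.3 and 13.7 (TGF-β), and 22.5, 14.8 and 20.2 (Both) and fell, with the 3 Stem libraries above all others but wide apart (log2 -1.59 ± 0.29, edgeR adjusted p = 3.33e-04). *Pcdha11*, a symbol borne by 2 identifiers of which the one tested was ENSMUSG00000007440, was higher in TGF-β by 0.99 ± 0.23, just under the 2-fold minimum (edgeR adjusted p = 0.00206).

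**Figure D4:**
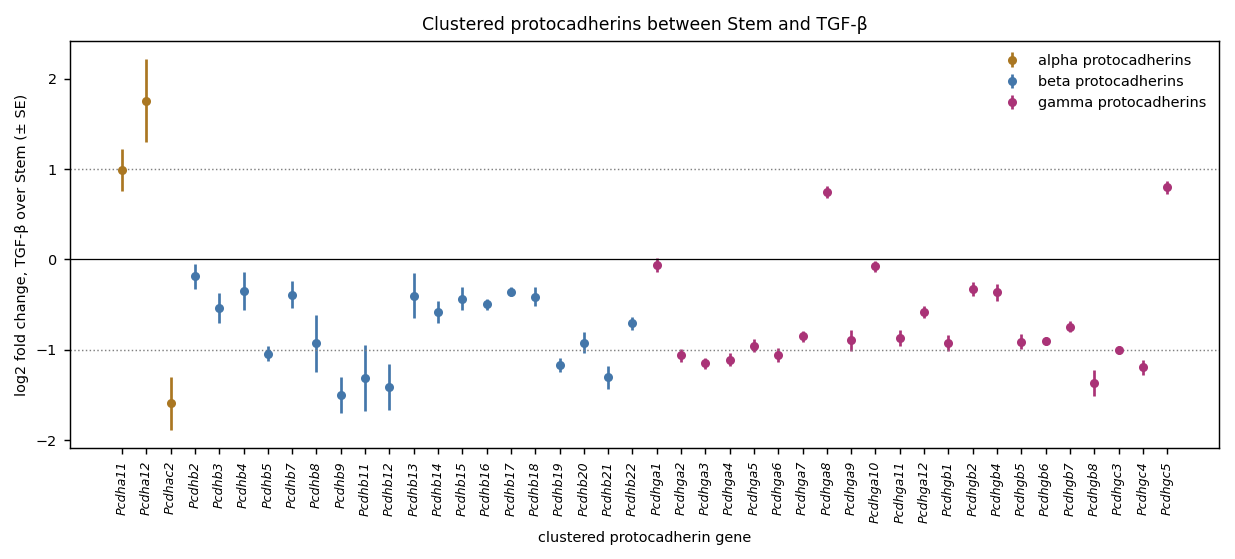
Log2 fold change from Stem to TGF-β of each tested alpha, beta and gamma protocadherin gene, with its standard error, in the order of gene names, and dotted lines at the 2-fold minimum. All 19 beta genes and 20 of the 22 gamma genes lie below 0, with *Pcdhga8* and *Pcdhgc5* the gamma genes above it, and the 3 alpha genes lie on both sides.

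The second comparison, TGF-β against Both, asks what PFI-3 altered in the presence of TGF-β. A single member, *Cdh3*, passed the threshold, and it fell. Over all tested genes 0.161% were called higher and 0.47% lower in Both. At the adjusted p alone 5 members were lower, *Cdh3*, *Pcdh1*, *Cdh6*, *Cdh11* and *Cdh2*, and 0 were higher, where 3.54% of all genes were higher and 5.38% lower. At an unadjusted p under 0.05 edgeR found 4 members higher and 7 lower, and DESeq2 found *Pcdh7* higher at its adjusted p (0.0319, log2 0.11). The median log2 difference was 0.00 over members as over all genes. The TGF-β libraries enter both the first and the second comparison.

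*Cdh3* was 3.11-fold lower in Both than in TGF-β (log2 -1.64 ± 0.20, edgeR adjusted p = 4.12e-04), and its Both libraries, at 36.0, 50.3 and 31.6, lay below the Stem libraries too (log2 -0.79 ± 0.21 from Stem to Both, edgeR adjusted p = 0.00561). By TREAT it was not called, with 0 members called and 1 at an unadjusted p under 0.05. TREAT called only 4 of the 14879 tested genes in this comparison. *Pcdh1* went from a mean of 544 ± 8.44 in TGF-β to 302 ± 11.1 in Both (SD, n = 3), a log2 difference of -0.85 ± 0.07 (edgeR adjusted p = 3.21e-05), and remained above Stem by 0.33 ± 0.07. *Cdh11* went from 33830 ± 1060 to 22720 ± 1580, which overlapped Stem at 21350 ± 912 (log2 -0.57 ± 0.05 from TGF-β to Both, edgeR adjusted p = 7.82e-05, and 0.09 ± 0.05 from Stem to Both, edgeR adjusted p = 0.147). Both therefore lay below Stem for *Cdh3*, overlapped Stem for *Cdh11* and lay above Stem for *Pcdh1*.

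*Cdh6* kept most of its rise. It was lower in Both than in TGF-β by 1.62-fold (log2 -0.70 ± 0.08, edgeR adjusted p = 3.90e-04) yet 32.7-fold above Stem. *Cdh10*, which had risen alongside it, did not pass (log2 -0.07 ± 0.11, edgeR adjusted p = 0.767), and neither did *Cdh18* (0.05 ± 0.09) or *Cdh24* (0.12 ± 0.23). *Cdh2* was lower in Both (log2 -0.15 ± 0.04, edgeR adjusted p = 0.0406), a difference whose edgeR adjusted p was between 0.0187 and 0.168 when 1 library was left out, 6 of the 9 such fits being above 0.05. *Pcdh17* and *Pcdh7* lay higher in Both in all 3 libraries without passing the adjusted p (log2 0.51 ± 0.16 and 0.11 ± 0.04, edgeR adjusted p = 0.0693 for both).

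Of the beta and gamma protocadherins 0 passed an adjusted p between TGF-β and Both by edgeR or DESeq2, with 0 beta and 2 gamma genes at an unadjusted p under 0.05 by edgeR. Few of all tested genes passed the edgeR adjusted p there, 3.54% higher and 5.38% lower in Both. The 22 gamma genes had log2 differences from -0.22 to 0.40 with a median of -0.01, and the 19 beta genes from -0.62 to 0.68 with a median of 0.03. For *Pcdhgc3* the difference was 0.02 ± 0.04. *Cdh13* (log2 0.32 ± 0.12), *Cdh26* (-0.63 ± 0.36) and *Pcdh9* (-0.08 ± 0.06) stayed far below Stem in Both, and *Pcdh11x* (0.25 ± 0.13), *Pcdh19* (0.02 ± 0.05) and *Pcdh20* (0.40 ± 0.20) above it.

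**Figure D5:**
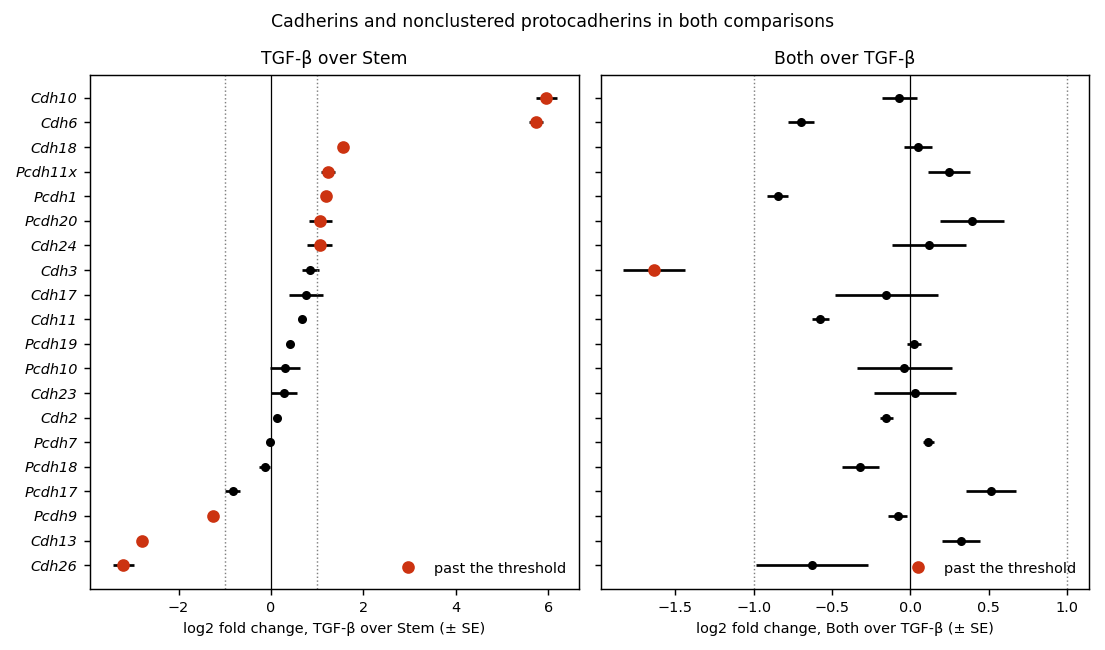
Log2 fold change with its standard error of 20 tested cadherins and nonclustered protocadherins from Stem to TGF-β (left) and from TGF-β to Both (right), with red points for genes past the threshold and dotted lines at the 2-fold minimum. The scales of the panels differ, and *Pcdh8*, a tested member with a large decrease and no count in any TGF-β library, is left out. *Cdh10* and *Cdh6* lie near 6 on the left, and *Cdh3* is the 1 gene past the threshold on the right.

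Between Stem and Both, which share their libraries with the comparisons above, 7 members rose and 15 fell, where 9.55% and 13.2% of all tested genes did. TREAT called 5 members higher and 9 lower, and 2104 of the 14879 tested genes in either direction. Of the 22 members past the threshold 21 had also been called between Stem and TGF-β. The one added was *Pcdhb8* (ENSMUSG00000045876), at 24.1, 19.6 and 32.5 normalized counts (Stem), 16.2, 8.11 and 15.6 (TGF-β), and 6.30, 10.9 and 8.78 (Both) (log2 -1.55 ± 0.34, edgeR adjusted p = 0.00123). The 5 called between Stem and TGF-β but not between Stem and Both were *Pcdh1* (log2 0.33 from Stem to Both), *Pcdhb11* (-0.64), *Pcdhb12* (-0.84), *Pcdhgb8* (-0.97) and *Pcdhgc3* (-0.99). *Pcdh8* had 2 counts in the Both libraries together against 56 in Stem, a ratio of 32.6 after scaling with an exact 95% interval of 8.62 to 276 that covers counting error only.

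The catenins that bind cadherin tails did not follow one direction. Of 13 tested catenins and related armadillo or junction proteins, 4 rose and 2 fell in TGF-β by the 2-fold threshold (median log2 -0.28). Of all tested genes 10.6% rose and 14.5% fell by that threshold. β-catenin (*Ctnnb1*) went from 31520 ± 1503 in Stem to 36260 ± 454 in TGF-β (log2 0.20 ± 0.04), αE-catenin (*Ctnna1*) from 16310 ± 397 to 12930 ± 189 (-0.34 ± 0.04) and p120-catenin (*Ctnnd1*) from 2757 ± 87.0 to 1947 ± 50.2 (-0.50 ± 0.04), all under the 2-fold minimum. Plakoglobin (*Jup*), which also binds cadherin tails, rose from 2025 ± 401 to 4766 ± 346 (log2 1.23 ± 0.11, edgeR adjusted p = 7.21e-07), and δ-catenin (*Ctnnd2*) rose from 36.4 ± 4.88 to 149.8 ± 7.35 (2.04 ± 0.13). Plakophilin-1 (*Pkp1*), a desmosomal armadillo protein, had 1 count over the Stem libraries and 101 over TGF-β, a ratio of 96.3 with an exact 95% counting interval of 16.9 to 3840. αN-catenin (*Ctnna2*) fell from 82 ± 11.8 to 14.9 ± 5.60 (log2 -2.44 ± 0.25), and α-catulin (*Ctnnal1*) from 2974 ± 472 to 713 ± 16.9 (-2.06 ± 0.10).

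The desmosomal list, the other junction built on cadherins, had 1 tested gene among 10. Desmoplakin (*Dsp*) rose from 9.63 ± 0.916 normalized counts in Stem to 888 ± 73.2 in TGF-β and was at 509 ± 2.52 in Both (log2 6.51 ± 0.12 and -0.80 ± 0.07, edgeR adjusted p = 7.57e-13 and 3.62e-05), while no desmoglein or desmocollin exceeded 12 counts in any library. A list of Fat, Dachsous, Celsr and calsyntenin genes also held cadherin-related genes such as *Cdhr1*, the secreted protein gene *Fjx1* and *Ret*, a receptor tyrosine kinase with cadherin-like domains. Of its 11 tested genes 4 rose (*Celsr3*, *Clstn2*, *Ret* and *Fat1*) and 2 fell (median log2 0.06), where 10.6% and 14.5% of all tested genes did. Both that fell were the Dachsous ligands of Fat4, *Dchs2* from 1270 ± 68.9 to 79.3 ± 13.1 (log2 -4.00 ± 0.13) and *Dchs1* from 2275 ± 33.7 to 223 ± 2.32 (-3.35 ± 0.06), while *Fat4* itself was at 7155 ± 798 and 6282 ± 568 and did not pass (edgeR adjusted p = 0.0787). *Celsr3* had 6 counts over the Stem libraries and 67 over TGF-β, a ratio of 10.6 with an exact 95% counting interval of 4.64 to 30.

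Nectins, which start junctions beside cadherins, split in direction. *Nectin1* rose (log2 1.08 ± 0.04), *Nectin2* fell (-1.32 ± 0.06) and *Nectin3* was higher at the adjusted p alone (0.93 ± 0.04). *Pvr*, a nectin-like gene on the same list, rose (1.84 ± 0.05). Past the threshold 10.6% of all tested genes rose and 14.5% fell. The transcription factors that repress *Cdh1* in mesenchymal transition were lower in TGF-β at the adjusted p for all 7 tested, where 37.7% of all tested genes were. *Snai2* fell past the threshold, from 1542 ± 153 to 346 ± 18.1 (log2 -2.16 ± 0.09), and *Snai1* only just passed the adjusted p (0.0496, edgeR). Of the 5 proteases that shed cadherins 0 passed the threshold in the first comparison by edgeR or DESeq2, with 2 higher and 3 lower at the edgeR adjusted p and all 5 at an unadjusted p under 0.05. Of 9 WAVE complex partners of delta-2 protocadherins *Cyfip2* rose (log2 1.87 ± 0.24), and 4 were higher and 2 lower at the adjusted p, *Cyfip2* included. Beside the counts of proteases and WAVE partners, 37.3% of all tested genes were higher and 37.7% lower at the adjusted p. Over all the related lists, that of chromatin regulators included, 0 of 63 tested genes passed the threshold between TGF-β and Both by edgeR or DESeq2, while 9 were at an adjusted p under 0.05 and 22 at an unadjusted p under 0.05 by edgeR. Of all tested genes 0.161% were called higher and 0.47% lower there, and 3.54% and 5.38% were at the adjusted p alone.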

How the data were processed

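RNA-Seq was made from total RNA with a stranded, ribosomal RNA-depleted kit, in 3 replicates of each of 3 conditions that the study describes as independent. The authors deposited 1 table of raw counts per Ensembl gene, with no normalization. The submitters' processing notes name HISAT2 2.2.1, SAMtools 1.13 and HTSeq 0.11.3 and the study's methods name other aligners, and both give the GRCm39 build. Which of them made the deposited counts, and the treatment of strand and multi-mapped reads, are not given in the sources used here.

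Genes were filtered by edgeR's filterByExpr (minimum count 10), scaled by TMM and tested in 1 fit of all 9 libraries with edgeR 4.0.16 (limma 3.58.1, R 4.3.3) by the quasi-likelihood test, with Benjamini-Hochberg adjustment over all 14879 genes. The threshold was an adjusted p under 0.05 and a change of at least 2-fold. P-values measure the spread between these libraries. For display, each count was divided by its effective library size and multiplied by the mean of those sizes (normalized counts). Depth was 35686291 to 47741128 counts per library, where 3 counts equal 2.63 to 3.26 normalized counts. Exon lengths and overlaps were taken from GENCODE M21 (GRCm38), and promoter sequences from RefSeq (GRCm38.p6, entries for 22 members). Library values were given for each member called in any comparison or with a mean of at least 1000 normalized counts in a group. Of the related lists, the genes named were up to 3 per list with the largest change among those called, and others were chosen after their values were seen. The members and lists were chosen with earlier results of these data known. Alternatives were DESeq2 1.42.0, RLE and total-count scaling, other filters, fits limited to 6 libraries, the replicate number as a block, a larger prior count (2), TREAT, no minimum fold and each library left out in turn.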

Additional observations from a re-analysis of the deposited data

How the results depend on the processing

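The number of members called was 26 between Stem and TGF-β, 1 between TGF-β and Both and 22 between Stem and Both. With no fold minimum these were 55, 5 and 55, and with TREAT against 2-fold 14, 0 and 14, as the construction of the rules implies. Over all tested genes, having no fold minimum gave 11158, 1327 and 10900, and TREAT gave 2479, 4 and 2104. For members all other settings stayed within 1.5 times, DESeq2 at 30, 1 and 26, and total counts at 31, 1 and 26. Leaving out 1 library gave 26 to 30, 1 in each case, and 22 to 25. Same-numbered libraries deviated together with correlations of -0.054 to 0.196 and 4 of 9 libraries correlated best with their own number, so the numbers were not taken as pairing the samples, and with a replicate block the counts were 26, 1 and 22. Of 1952 alternative values for 115 named differences, 1891 kept their direction and side of the threshold. One changed sign, *Pcdh7* between Stem and Both, at -0.019 (log2) with total counts against 0.09. The others crossed the 2-fold line, in 21 of the differences, and the cause was not tested. This tally cannot show whether a difference under 2-fold kept an adjusted p under 0.05, and some did not. By edgeR or DESeq2 that adjusted p rose as high as 0.867 for *Cdh2* and 0.162 for *Pcdhb7* between Stem and TGF-β. For *Cdh2* between TGF-β and Both it rose to 0.168. Depth limits the 28 untested members.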

Other observations

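Regulators that choose clustered protocadherin promoters or keep them silent were lower in TGF-β than in Stem. All 13 tested, a list of CTCF, cohesin subunits with factors that load or release cohesin, DNA methyltransferases, *Setdb1* and *Smchd1*, were lower at the edgeR adjusted p (median log2 -0.54), and 1, *Dnmt3b*, fell past the threshold, from 37.8 ± 6.40 to 17.6 ± 4.76 normalized counts (mean ± SD, n = 3, log2 -1.09 ± 0.26). *Ctcf*, whose protein anchors the loops of the clusters, went from 3303 ± 325 to 2324 ± 116 (log2 -0.51 ± 0.07), the cohesin subunits *Rad21* from 4406 ± 153 to 2917 ± 60.4 (-0.59 ± 0.04) and *Stag1* from 4773 ± 81.9 to 2691 ± 20.9 (-0.83 ± 0.04), and *Smchd1*, a silencer of these clusters, from 3997 ± 91.5 to 2752 ± 20.7 (-0.54 ± 0.04). Between TGF-β and Both *Stag1* (log2 0.18 ± 0.04) and *Smchd1* (0.14 ± 0.04) were higher and *Dnmt3a* (-0.22 ± 0.06) lower at the edgeR adjusted p, and 0 of the 13 passed the threshold. At the adjusted p alone 37.7% of all tested genes were lower in TGF-β, and the part of these regulators in the protocadherin values was not tested. In the alpha and gamma arrays 4 further annotated genes that span member exons (*Gm37013*, *Gm37388*, *Gm38182* and *Gm42416*) held 0 to 2 counts in each library.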
